A study of Caenorhabditis elegans with 2 samples.

Results

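The C-type lectin genes of Caenorhabditis elegans were examined for binding of HSF-1, the transcription factor of the heat shock response. Members were the protein-coding genes in Ensembl release 115 whose names start with clec-, and there were 240 of them among 19973 protein-coding genes on the 6 nuclear chromosomes. They carry 237 names, because clec-15, clec-209 and clec-249 each stand for 2 loci. The samples were whole worms that carried the allele st12254[hsf-1::TY1::EGFP::3xFLAG] on chromosome I, a CRISPR insertion at hsf-1 that fuses a TY1 tag, enhanced green fluorescent protein and a triple FLAG tag to HSF-1 (RW12254 is the name of the strain). Chromatin of a whole worm does not tell cell types apart. There was 1 group with 2 biological replicates, young adults of 63 hours that had been synchronised by bleaching and starvation as L1 larvae, and the labels name no heat treatment. Chromatin was sonicated to 200 to 800 bp, and the labels differ on the antibody, since their description of the experiment gives anti-GFP and their antibody field gives hsf-1. No control sample and no second condition was analysed here, so the values describe where peaks lay in these worms and test no difference between conditions.

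C-type lectins are proteins with a carbohydrate-recognition fold, and many are secreted or sit in the cell membrane. The family is greatly expanded in this worm. Many of its members are expressed in the intestine and change with exposure to bacterial pathogens, where they are counted among the effectors of innate immunity, together with lysozymes, caenopores and antimicrobial peptides. HSF-1 binds heat shock elements, which are GAA units repeated in alternating orientation, and is best known for driving chaperone genes.

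Few C-type lectin genes had an HSF-1 peak near a transcript start. A summit of the pooled list, made from both replicates and holding 2935 peaks, fell within 1000 bp upstream or 200 bp downstream of a start, the window used throughout, in 5 of the 240 members. That was 2.08% (95% Wilson interval 0.893 to 4.78), beside 7.63% of all protein-coding genes (7.27 to 8.01). The conservative list of 2572 peaks held the same 5 members, 2.08% beside 7.11% of all genes. The list of replicate 1 alone, with 1217 peaks, held 2 members, or 0.833% (0.229 to 2.99) beside 3.83%, and that of replicate 2 alone, with 1877 peaks, held the same 2 members, 0.833% beside 5.29%. Each list thus gave the members a lower share than all genes. The intervals cover the counting of genes only, neighbouring members are not independent, and no test of the family against other genes was made. Cuticle collagen (col-) genes had a pooled summit in 7 of 156 cases, 4.49% (2.19 to 8.97), and nuclear hormone receptor (nhr-) genes in 9 of 269, 3.35% (1.77 to 6.24). The intervals of these 2 families overlap that of the C-type lectins.

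**Figure D1:**
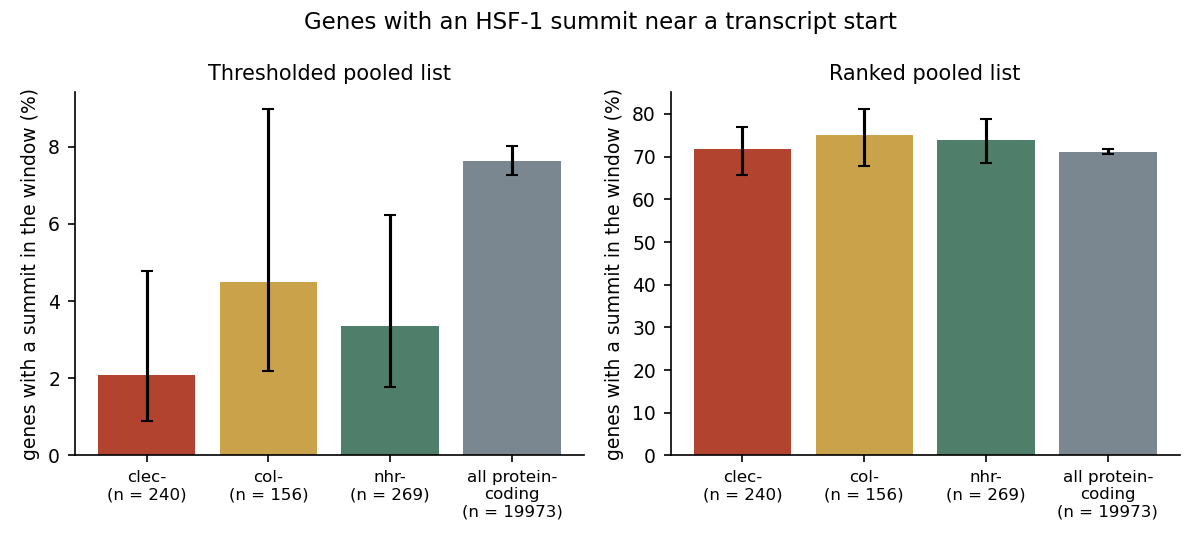
Share of genes (%) with a summit in the promoter window, for clec-, col- and nhr- genes and all protein-coding genes, in the thresholded pooled list (left) and the ranked pooled list (right). Bars are shares with 95% Wilson intervals; the clec- bar is at 2.08% on the left, beside 7.63% of all genes, and at 71.7% on the right, beside 71.2%.

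The 5 genes were clec-87, clec-104, clec-88, clec-126 and clec-57. Signal is the authors' value for each peak as given by the peak caller, and it is used only to describe and rank peaks within a list. The pooled signals of the 5 peaks were between 73.7 and 124.3, with a median of 87.4, beside a median of 107.8 and an upper quartile of 177.6 for the strongest peak of each of the 1524 genes with a summit. Of those 1524 genes, 42.1% had a stronger peak than clec-87, the strongest member. By signal the 5 peaks stood 924th, 1477th, 1632nd, 1962nd and 2203rd among the 2935. The irreproducible discovery rate (IDR), a measure of the rank agreement of peaks between data sets in which a low value marks a repeatable peak, was at most 0.0033 for each in the pooled analysis.

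Only clec-87 and clec-126 had the nearest protein-coding start to their summit. The peaks of clec-88, clec-126 and clec-57 are printed here as 151 bases centred on the summit, on the strand of the lectin gene, because their letters show what lies there. Bases in capitals belong to a small noncoding RNA gene at clec-126 and clec-57, and at clec-88 they are the 11 bases around the summit. Positions are on ce11, and the sequence is that of the RefSeq copy of the same assembly (WBcel235).
clec-88, chrII:6365386-6365536, plus strand: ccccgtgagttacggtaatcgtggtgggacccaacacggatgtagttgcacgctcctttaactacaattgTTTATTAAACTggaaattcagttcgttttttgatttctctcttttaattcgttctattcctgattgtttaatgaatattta
clec-126, chrII:3519236-3519386, plus strand: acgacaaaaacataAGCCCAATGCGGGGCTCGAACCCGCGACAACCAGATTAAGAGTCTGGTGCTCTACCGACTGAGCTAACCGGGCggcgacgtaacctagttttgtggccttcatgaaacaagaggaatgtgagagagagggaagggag
clec-57, chrV:14468643-14468793, plus strand: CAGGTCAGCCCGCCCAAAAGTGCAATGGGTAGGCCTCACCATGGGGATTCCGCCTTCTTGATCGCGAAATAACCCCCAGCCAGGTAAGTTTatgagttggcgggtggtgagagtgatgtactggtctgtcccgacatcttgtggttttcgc

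The summit at clec-126 (gene on chromosome II, 3519494 to 3520712, plus strand) lay 183 bp upstream of its start and inside a tRNA gene. This gene is W09G10.t2, annotated by RefSeq as tRNA-Lys (3519250 to 3519322, minus strand), and all 73 of its bases are among those printed. The peak had a pooled signal of 78.4, and the overlapping ranked peaks had 28.6 in replicate 1 and 47.9 in replicate 2. The replicate peaks had IDRs of 0.789 and 0.0585, so that neither thresholded replicate list held it. Its summit was the only one of the 5 that lay in the window of no other protein-coding gene.

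The summit at clec-57 (chromosome V, 14469231 to 14472448, plus strand) lay 513 bp upstream of its start and inside F08H9.11, a small nuclear RNA gene (14468569 to 14468733, minus strand). The noncoding gene F08H9.13 overlaps it on the other strand. The summit was also 472 bp upstream of srz-97, a gene of the serpentine chemoreceptor class that is transcribed the other way. The pooled signal was 73.7, with 34.4 in replicate 1 (IDR 0.395) and 39.1 in replicate 2 (IDR 0.143), and neither thresholded replicate list held the peak. Only 50.7% of the 31-base words in the peak occur once in the genome, so reads from other copies may have been placed here and its value is uncertain. Thus 2 of the 5 member summits lay inside a tRNA, snRNA, snoRNA, rRNA or miRNA gene, beside 40 (2.99%) of all 1338 pooled summits in promoter windows.

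The summit at clec-88 (chromosome II, 6365722 to 6367002, plus strand) was intergenic, between divergent genes. It lay 261 bp upstream of clec-88 and 94 bp upstream of ani-2, which encodes an anillin-like protein of the germline. The pooled signal was 87.4, with 36.7 in replicate 1 (IDR 0.688) and 38.9 in replicate 2 (IDR 0.0577). Neither thresholded replicate list held this peak.

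Both thresholded replicate lists held the peaks of clec-87 and clec-104. The clec-87 summit (chromosome I, 10185472, peak 10185443 to 10185557) lay 48 bp downstream of its start, in an untranslated region of the gene. It was also 383 bp upstream of the divergent gene rsa-1, a regulatory subunit of protein phosphatase 2A that acts at centrosomes. Signal was 124.3 in the pooled list, 66.8 in replicate 1 (IDR 0.00034) and 73.6 in replicate 2 (IDR 0.00053). The clec-104 summit (chromosome I, 12858564, peak 12858412 to 12858715) was intergenic and 929 bp upstream of its start. It was nearer to the divergent gene ciao-1, a member of the cytosolic iron-sulfur assembly machinery, at 283 bp. Signal was 92.0 in the pooled list, 45.6 in replicate 1 (IDR 0.00386) and 52.2 in replicate 2 (IDR 0.00291). Reference masking covered 62.7% of the bases within 100 bp of this summit, and 59.9% of the 31-base words of the peak were unique.

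**Figure D2:**
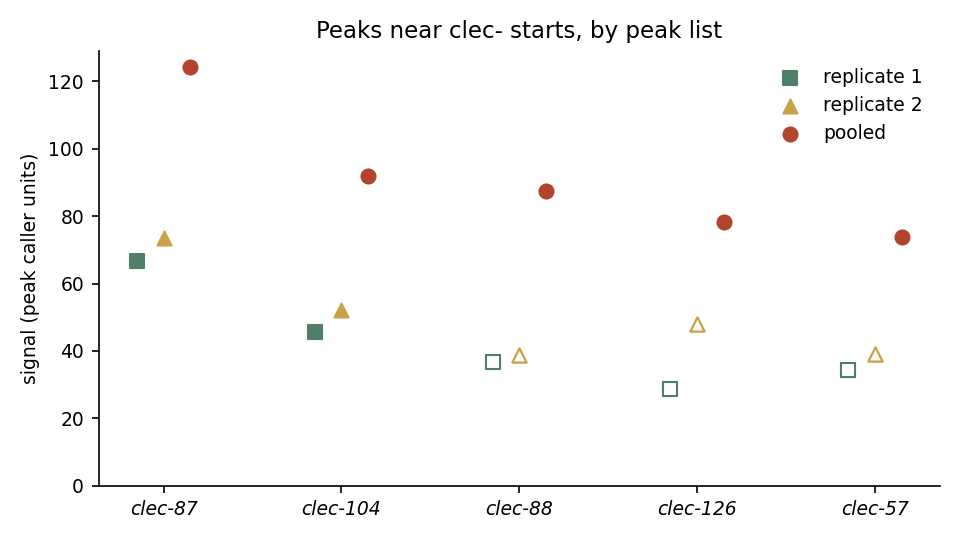
Signal (peak caller units, y axis) of the 5 peaks near clec- starts in replicate 1 (squares), replicate 2 (triangles) and the pooled list (circles). Open symbols are ranked peaks that are absent from that replicate's thresholded list; filled replicate symbols occur at clec-87 and clec-104 alone.

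In all, 4 of the 5 members shared their summit with a divergent neighbour, beside 44.6% of the 1524 genes with a summit (680 genes) that shared theirs with any other gene. With each summit given to its nearest gene alone, clec-87 and clec-126 were left, 0.833% of members beside 5.92% of all genes. Leaving out summits inside small noncoding RNA genes, which was decided once values were known, clec-87, clec-88 and clec-104 were left, 1.25% beside 7.43%.

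None of the 5 peaks held a perfect heat shock element, searched as GAANNTTCNNGAA or TTCNNGAANNTTC on both strands within 100 bp of the summit. Of all 1338 promoter summits 9.57% held one. With 1 mismatch allowed, an element lay at the peak of clec-87 alone, 1 of 5, beside 24.8% of promoter summits. A pair of units (GAANNTTC or TTCNNGAA) lay within 100 bp of the summits of clec-87 and clec-126, beside 33.3% of promoter summits. A match is a description of the letters and not a site.

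The members whose windows did hold a perfect element were others. There were 12 of them, 5% of the family (2.88 to 8.53), beside 9.21% of all protein-coding genes (1840). No pooled summit lay within 100 bp of any of these elements, and none of the 12 genes had a pooled summit in its window (0 of 12, Wilson upper limit 24.2%). Of the 1840 genes, 268 (14.6%) had a pooled summit in the window. Each element stood alone, with no second one within 100 bp. They lay between 976 bp upstream (clec-197) and 192 bp downstream (clec-73) of the start. Only at clec-266 and clec-197 did even a ranked peak have its summit within 100 bp of the element, with signals of 53.4 (IDR 0.243) and 7.48 (IDR 0.777).

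The 4 elements that lay nearest upstream of a start are shown with 8 bases on either side, on the strand of the lectin gene and with the element in capitals, as perfect matches that had no thresholded peak. That of clec-58 was centred 35 bp upstream of the start, that of clec-266 49 bp and that of clec-202 101 bp. The last lay between the divergent genes clec-27 and clec-35, 254 bp and 323 bp upstream of their starts, and is shown on the strand of clec-27.
clec-58, chrII:10476160-10476188, minus strand: agatcagtGAAAATTCAAGAAagacattc
clec-266, chrX:6622950-6622978, minus strand: atacaacgGAATATTCTGGAAgaggtcaa
clec-202, chrIV:17361328-17361356, plus strand: aaggatcaTTCATGAATGTTCaaattatt
clec-27, chrV:16854365-16854393, plus strand: ctgtcctcTTCAAGAAATTTCctgagact

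**Figure D3:**
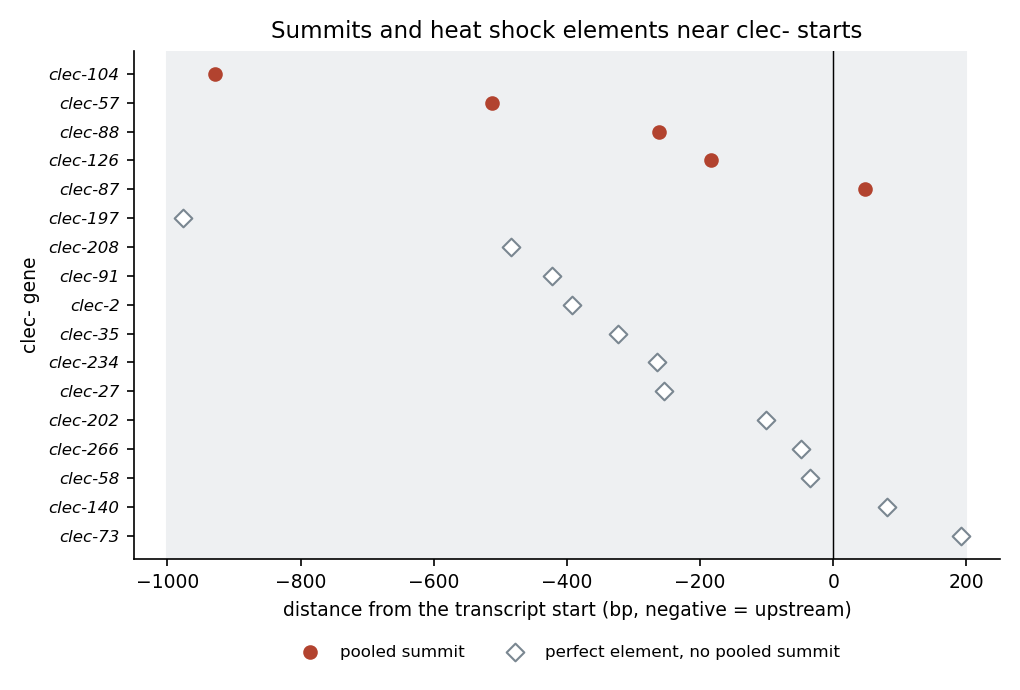
Distance (bp, x axis) from the transcript start to the pooled summits of 5 clec- genes (filled circles) and to the perfect heat shock elements in the windows of 12 others (open diamonds), 1 gene per line; shading marks the window from 1000 bp upstream to 200 bp downstream. No gene has both.

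Below the threshold the family looked more like other genes. The ranked pooled list, with 97869 peaks of any IDR, had a summit in the windows of 172 members, 71.7% (65.7 to 77) beside 71.2% of all protein-coding genes. The share of members was lower at each stricter IDR. It was 37.9% at an IDR of at most 0.5 beside 44.6% of all genes, 14.6% at 0.25 beside 24.6%, 7.5% at 0.1 beside 15.8% and 5.83% (14 members) at 0.05 beside 12.2%. This was not particular to the lectins. At the same steps the col- genes were at 41%, 16.7%, 7.69% and 5.77%. The nhr- genes were at 38.3%, 17.5%, 10.8% and 7.81%. The ranked lists of the replicates placed the members below all genes in replicate 1 and close to them in replicate 2. That of replicate 1, with 48941 peaks, reached 89 members, 37.1% (31.2 to 43.4) beside 48.7% of all genes. That of replicate 2, with 81721 peaks, reached 169, 70.4% (64.4 to 75.8) beside 67.4%, which lies inside the interval.

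**Figure D4:**
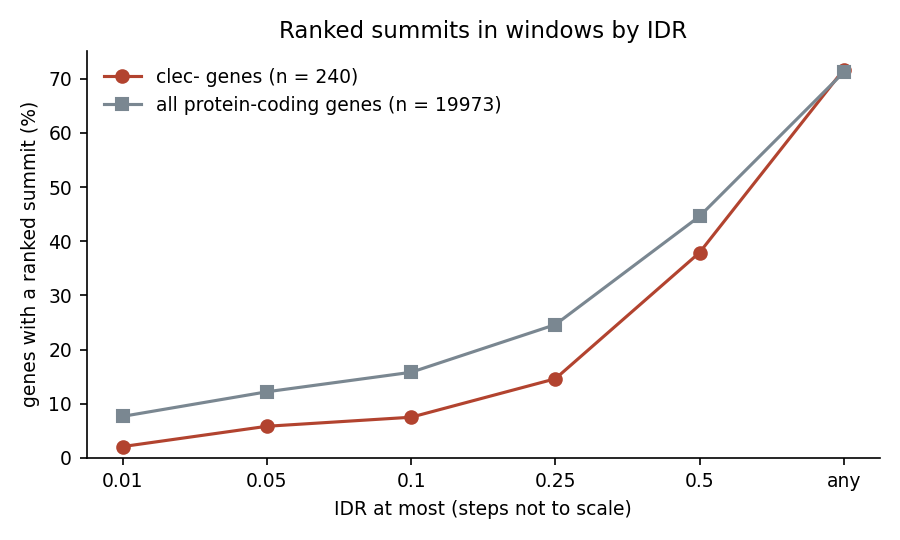
Share of genes (%) with a ranked pooled summit in the window at an IDR of at most the value on the x axis, for clec- genes (circles) and all protein-coding genes (squares). The lines meet at any IDR, 71.7% beside 71.2%, and the clec- line is the lower one at each smaller value.

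The strongest ranked signal in a window had a median of 27.9 over the 172 members, with quartiles of 20.5 and 38.99 and a maximum of 124.3. Over the 14054 other genes with a ranked summit the median was 34.8, with quartiles of 24.3 and 49.2 and a maximum of 6602. A signal over 100 was found at 1 member, 0.417% of the family, beside 4.32% of other genes, and a signal over 50 at 20 members, 8.33% beside 17%. The signals were thus lower among members over most of their range.

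**Figure D5:**
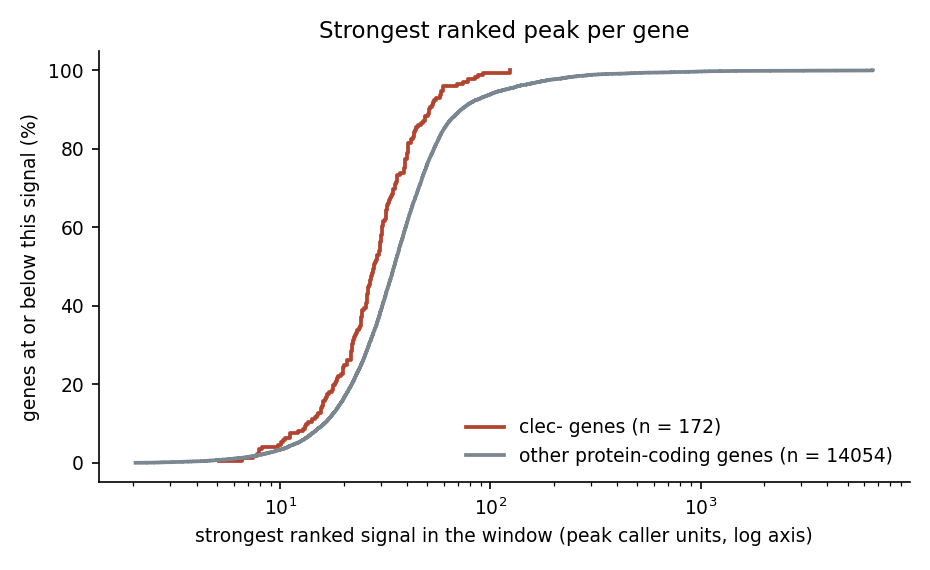
Cumulative share of genes (%, y axis) by the strongest ranked signal in the window (peak caller units, log x axis), for 172 clec- genes and 14054 other protein-coding genes. The clec- curve lies to the left over most of its range and ends at 124.3, where the other curve goes on to 6602.

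The strongest ranked peaks at members without a thresholded summit were at clec-111, clec-142, clec-262, clec-107 and clec-1. The clec-111 peak, 144 bp downstream of its start in an intron, had a pooled signal of 84.6 at an IDR of 0.043, with 42.2 in replicate 1 and 29.5 in replicate 2. That of clec-142 had 69.5 at an IDR of 0.0138, matched no ranked peak of replicate 1, and had 41.6 in replicate 2. The signals at clec-262, clec-107 and clec-1 were 59.7, 59.6 and 58.5, at IDRs of 0.057, 0.0794 and 0.167. None of these peaks held a perfect element.

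Members with a described role were among those without a thresholded summit. The genes clec-39 and clec-49, whose products bind the bacterium Serratia marcescens, had strongest ranked signals of 51.0 (IDR 0.199) and 24.5 (IDR 0.497). The value at clec-49 is uncertain, since 44.7% of the 31-base words of its peak are unique. The gene clec-60, which is induced by Staphylococcus aureus, had 29.8 (IDR 0.293). The genes clec-67 and clec-85, whose expression depends on the p38 MAP kinase PMK-1, had 33.4 (IDR 0.405) and 48.9 (IDR 0.5). The gene clec-38, which acts in axon outgrowth, had 22.8 (IDR 0.543) at a peak that also lay in the window of clec-34.

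Other gene lists, which include effector and signalling genes of the immune response, were counted in the same way. The lists taken by name prefix were not limited to genes with an immune role. No pooled summit was found at 10 lys- lysozyme genes, 11 cnc- and 6 abf- antimicrobial peptide genes, 8 irg- infection response genes or 10 dod- genes, named as downstream of the insulin pathway factor DAF-16. The nlp- neuropeptide-like genes had 1 of 71 (nlp-40, signal 69.8), the spp- caenopore genes 2 of 31 (spp-26 and spp-1, 73.4 and 73.3), the ilys- invertebrate lysozymes 1 of 6 (ilys-5, 84.9) and the lec- galectins 2 of 12 (lec-10 and lec-6, 104.9 and 62.6). Of 14 genes of the p38 pathway and of intestinal immune regulation, 2 had one. They were zip-2, a bZIP transcription factor gene (81.2), and vhp-1, a MAP kinase phosphatase gene (79.9). The share over all protein-coding genes is the 7.63% given above, and lists this short have wide intervals, from 4.7% to 44.8% for the lec- genes and up to 27.8% for the lys- genes.

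Members lie mostly in clusters. Another member was within 10 kb of 155 of the 240 (64.6%), and of 3 of the 5 with a pooled summit. Of the 777 other protein-coding genes within 10 kb of a member, 55 (7.08%, 5.48 to 9.1) had a pooled summit, so that the neighbours were close to the 7.63% of all genes. These neighbours include rsa-1, ciao-1, ani-2 and srz-97, which share their summits with members, so the counts are not separate. With each chromosome cut into 3 parts of equal length, the outer parts held 84.2% of members and 62% of other genes. A pooled summit was present at 4 of the 202 members there, 1.98% beside 7% of other genes, and at 1 of the 38 members in the middle parts, 2.63% beside 8.83%. By chromosome, the members with a summit numbered 2 of 36 on I, 2 of 48 on II and 1 of 86 on V, beside 10.5%, 7.59% and 6.19% of the other genes there. The 14 members on III, 53 on IV and 3 on X had none, beside 12.5%, 8.8% and 1.72%.

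Some pooled peaks lay near members, outside their windows. Within 5 kb of a start, but not in the window, 20 further members had a pooled summit. The share of all protein-coding genes with one at that distance was not computed. The count therefore has no background beside it and is not a result about the family. Signals of these peaks went from 56.8 to 4387, and neighbouring members could share a summit, as clec-111 and clec-112 did. For clec-125 and clec-227 the summits were those of clec-126 and clec-57, described above. The strongest was a peak on chromosome IV (17278216 to 17278946, signal 4387) in the window of hsp-1, which encodes a constitutive HSP70 chaperone, and it lay 1034 bp downstream of a start of clec-196 and beyond the end of that gene. It was also the nearest beyond the downstream limit. The next by distance on that side was a peak 1243 bp downstream of clec-87, with a signal of 201.0 and present in both thresholded replicate lists. The nearest beyond the upstream limit was a peak 1671 bp upstream of clec-112, in an intron of clec-111, with a signal of 88.2. The most distant summit inside that limit was that of clec-104, at 929 bp with 92.0. A peak with 19 perfect element matches within 100 bp of its summit, overlapping matches included, and a signal of 264.7 lay 2327 bp upstream of clec-219 and in no promoter window. A peak of signal 871.3, 4986 bp from a start of clec-264, lay in the windows of F31D4.2 and of fkb-6, an FK506-binding protein gene.

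Sequence that also occurs elsewhere in the genome limits what can be said of 8 members. Fewer than 50% of the 31-base words in their windows occur once in the genome, and none of the 8 had even a ranked summit. They are both loci each of clec-15, clec-209 and clec-249, with clec-175 and clec-225, and their reads may have been discarded or placed elsewhere. They are 3.33% of members, beside 3.11% of all protein-coding genes with windows as repetitive. Over all protein-coding genes, 14226 had a ranked summit, and 13983 had one when such windows were left out. Some genes with windows as repetitive thus did have a ranked summit. Their share was not computed, so the lack of one at the 8 members has no share beside it. Leaving out such windows, also decided once values were known, 5 of 232 members had a pooled summit, 2.16% beside 7.71% of all genes. A ranked summit was then present at 74.1% of members beside 72.3% of all genes.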

How the data were processed

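HSF-1 peaks of 2 biological replicates were analysed from the peak lists the authors deposited on ce11, 4 thresholded by IDR and 3 ranked, per the deposited file listings. The replicate lists rest on the alignments of 1 replicate and the pooled and conservative lists on both, per the listings. The sources used here do not name the aligner, the peak caller or read numbers, so depth is unknown. Signal per peak and −log10 of the IDR were used as deposited by the authors. Signal is not scaled between lists. A second ranked series list and 16 columns of values without a named sample were not used.

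Windows came from every Ensembl transcript start, and a divergent pair can share a summit. A gene with more starts could have more sequence searched, and shares and signals were not adjusted for this. Values per replicate at a pooled peak are those of the overlapping ranked peak (at least 1 bp) with the nearest summit. Words of 31 bases were counted on both strands. Masking is that of the reference. Shares carry 95% Wilson intervals. No test was made. Members and lists were chosen with earlier results of these data known. Named genes were all members with a summit, the 5 strongest others, their neighbours and 6 members with known roles; genes named beyond these were chosen after their values were seen. Python 3.11.15, numpy 2.4.6 and scipy 1.17.1 were used, and the scripts were tested on simulated data.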

Additional observations from a re-analysis of the deposited data

How the results depend on the processing

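The count of 5 members with a pooled summit stayed within 1.5 times with the wider window (6), overlap of the whole peak (5), the conservative list (5), without masked summits (4) and without repetitive windows (5). It was 3 with a window from 500 bp upstream to 100 bp downstream, 2 with the nearest gene only, 1 in the upper 50% of peaks by signal and 3 without summits in small noncoding RNA genes. With either replicate alone it was 2. In each of these settings the members' share was below that of all genes. The share of members with any ranked summit, 71.7%, was 5.83% at an IDR of at most 0.05 (12.2% of all genes). It was 77.1% with overlap of the whole peak (75% of all genes) and 47.1% in the narrower window (55.3% of all genes). With 1 replicate the share was 37.1% to 70.4%, lower than all genes in replicate 1 (48.7%) and close to all genes in replicate 2 (67.4%). The difference between the replicates was not tested. The count of 0 member summits with an element was 1 with 1 mismatch and 0 with either replicate alone. Of the 5 peaks 2 were in both thresholded replicate lists, and 5 in both ranked lists. No paired analysis was possible because there is only 1 group. Unknown read depth limits all shares.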

Other observations

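On chromosome III the share of members with a summit was below that of the other genes in each of the 3 ranked lists, by an amount that depended on the list. In the pooled list a ranked summit lay in the window of 4 of these 14 genes, 28.6%, beside 77.8% of the other genes of that chromosome, and on the other chromosomes the members' share was between 62.3% and 80.6%. The 4 were clec-6, clec-148, clec-151 and clec-153, with signals of 34.1, 24.2, 24.1 and 27.7. In the ranked list of replicate 1 the count was 2 of 14, 14.3% beside 58% of the other genes, and in that of replicate 2 it was 7 of 14, 50% beside 74.5%. The gene clec-158 had a ranked summit in both replicate lists and none in the pooled one. Unique 31-base words made up at least 90.7% of each of the 14 windows. The difference was noticed in the data, the values per replicate were added after the data were seen, and it was not tested.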
